A study of Mus musculus with 6 samples.

Results

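The genes of oxidative phosphorylation were followed in RNA-seq of primary hippocampal neuron cultures from mice, with 3 libraries labelled WT and 3 labelled Fmr1 KO. Members were chosen by symbol: the mitochondrially encoded genes (mt-) and the nuclear genes of complexes I to V, with cytochrome c. This gave 130 genes at 124 loci, of 48100 rows and 47086 loci in all, with 37 genes mitochondrially encoded and 93 nuclear-encoded. Both genotypes were C57BL/6 and were sampled after 14 days in vitro with no treatment, and they differed in a knockout of Fmr1, the gene of the RNA-binding protein FMRP that fragile X syndrome silences. The sources used here do not name the knockout allele. The cultures hold neurons together with glia, so each value is a mean over cell types, in which fewer cells of a type and less RNA per cell cannot be told apart. The labels do not say which litter or culture gave each library, so p-values measure only the spread between these samples, which may be technical.

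Oxidative phosphorylation makes most of the ATP that neurons use for ion pumping and synaptic transmission. Complexes I to IV pass electrons from NADH and succinate to oxygen, complexes I, III and IV pump protons across the inner mitochondrial membrane, and complex V, the ATP synthase, uses the returning protons to make ATP. All of these complexes but complex II combine subunits translated inside the mitochondrion from the small circular mitochondrial genome with subunits made in the cytosol from nuclear genes. The mitochondrial genes are transcribed together as long precursors, from which tRNAs, rRNAs and mRNAs are cut.

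Several members have near-identical copies elsewhere in the genome. The sequences are shown because a short read from an identical stretch cannot tell the gene from its copy, while a read over a differing base can. A block on the minus strand of chromosome 1 (GRCm38, 24611535 to 24616197) carries 7 annotated pseudogenes that match positions 6390 to 11042 of the mitochondrial genome. The 681 bases of mt-Co2 before the stop codon, of which the first 90 are printed with the start codon in capitals, had 0 differences from the pseudogene Gm28661. The 345 bases of mt-Nd3 differed from the pseudogene Gm28438 at 1 position, T3C, counted from 1 at the first coding base with the base of mt-Nd3 first and in capitals in both lines. Cox7c, a nuclear complex IV subunit, is printed whole without its stop codon, with the start codon in capitals; its 189 bases had 0 differences from the processed pseudogene Gm12338. Cox5b, another complex IV subunit, differed from its copy Gm11273 at 3 of 387 bases (C114T, A213G and G243A), which are in capitals in the 190-base window that holds them. All are from GENCODE transcripts on GRCm38, 5′ to 3′.
mt-Co2: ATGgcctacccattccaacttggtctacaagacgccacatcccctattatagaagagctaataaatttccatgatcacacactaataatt
mt-Nd3: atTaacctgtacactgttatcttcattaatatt
Gm28438: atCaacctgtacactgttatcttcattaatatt
Cox7c: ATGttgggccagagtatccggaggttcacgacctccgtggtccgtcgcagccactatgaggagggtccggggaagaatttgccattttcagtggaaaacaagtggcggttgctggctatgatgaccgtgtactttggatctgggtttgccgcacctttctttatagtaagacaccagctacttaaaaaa
Cox5b: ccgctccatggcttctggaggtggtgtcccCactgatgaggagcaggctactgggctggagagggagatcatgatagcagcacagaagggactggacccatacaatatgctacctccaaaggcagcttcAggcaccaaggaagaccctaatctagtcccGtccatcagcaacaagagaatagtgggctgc
Gm11273: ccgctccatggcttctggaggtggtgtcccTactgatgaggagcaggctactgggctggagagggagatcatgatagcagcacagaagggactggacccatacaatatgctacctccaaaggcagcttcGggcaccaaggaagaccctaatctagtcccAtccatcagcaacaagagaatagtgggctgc

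Expression is given as FPKM, mapped fragments scaled by transcript length and library size, as deposited by the authors. Those loci whose mean reached 1 FPKM for WT or for Fmr1 KO, 13195 in all, were tested with limma on log2(FPKM + 0.1) with Benjamini-Hochberg adjustment, and log2 changes are Fmr1 KO minus WT. On this scale the change of weakly expressed genes is understated. The median log2 change of all tested loci was 0.005. With an adjusted p below 0.05 there were 12 loci with a rise (0.0909%) and 23 with a fall (0.174%), together 0.265%. With an unadjusted p below 0.05 there were 922 with a rise (6.99%) and 1025 with a fall (7.77%). All 3 Fmr1 KO libraries lay above all 3 WT libraries at 1430 loci (10.8%) and below them at 1359 loci (10.3%). Fmr1 itself was listed at 19.0, 19.5 and 19.7 FPKM in WT and 23.1, 21.8 and 18.5 FPKM in Fmr1 KO, which overlap (exact two-sided permutation p = 0.4). The knockout thus did not show as a lower gene-level value, which can include disrupted transcripts along with intact ones. The reason was not tested, and every direction given here rests on the labels.

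The mitochondrially encoded RNAs stood higher in each of the libraries labelled Fmr1 KO. All 10 loci that carry the 13 protein genes had a log2 change above 0, with a median of 0.41 and a range from 0.23 at mt-Nd6 to 1.72 at mt-Co2, and at all 10 every Fmr1 KO library lay above every WT library as deposited, although with quantile normalization the log2 changes of mt-Nd4 (-0.12) and mt-Nd6 (-0.17) turned. The share of all loci with that separation was 10.8%. Of the 10 loci, 9 had an unadjusted p below 0.05, and with limma's adjusted p the count was 0, the lowest being 0.0720 for mt-Nd2. The 10 loci are cut from shared precursors and measured in the same libraries, so they are not independent of each other.

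The 2 ribosomal RNAs of the mitochondrion lie first on the genome and had changes of the same sign as the mRNAs. The small-subunit rRNA mt-Rnr1 (mitochondrial genome, 70 to 1024) was listed at 4360, 3822 and 4385 FPKM in WT and 6398, 6074 and 5692 FPKM in Fmr1 KO. All Fmr1 KO libraries lay above all WT libraries, and the rise of 0.53 (SE 0.08) had an adjusted p of 0.0368 with limma, the only member below 0.05. That call was lost, at 0.0670 to 0.181, in each of the 6 fits that left out 1 library, and its log2 change was 0.12 with quantile normalization and 0.36 with the trend of each library with level removed. The large-subunit rRNA mt-Rnr2 (1094 to 2675) was listed at 4747, 4207 and 4968 FPKM in WT and 6343, 6108 and 5814 FPKM in Fmr1 KO, a log2 change of 0.39 (SE 0.08, adjusted p = 0.0768 with limma). Its genotypes did not overlap either, but with quantile normalization its log2 change was -0.065.

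**Figure D1:**
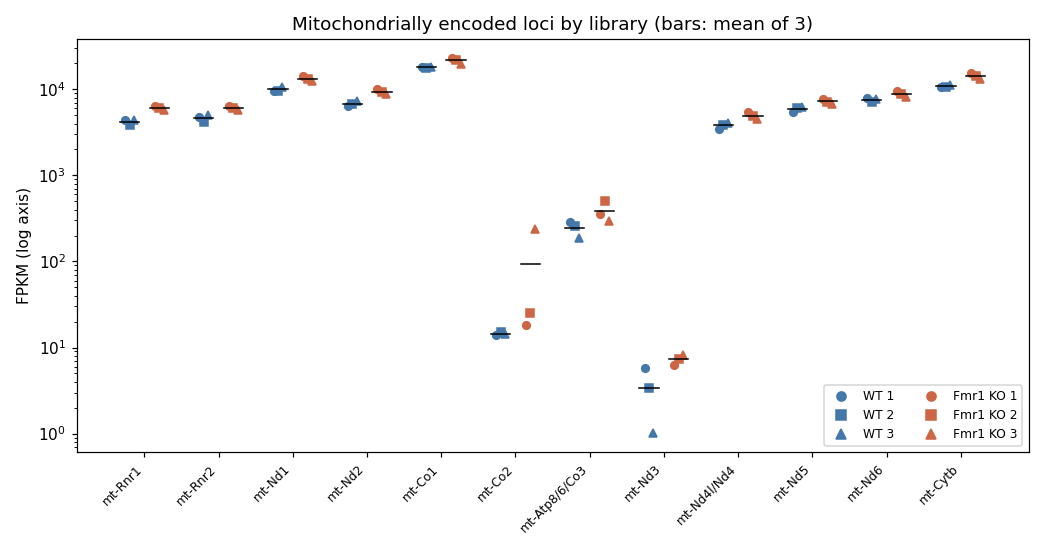
FPKM on a log axis of the 2 mitochondrial rRNA loci and the 10 loci of the 13 mitochondrial protein genes, in genome order from the left, for each of 3 WT (blue) and 3 Fmr1 KO (orange) libraries, with black bars for the mean of 3. Orange points lie above blue ones at every locus as deposited (quantile normalization turns mt-Nd4, mt-Nd6 and mt-Rnr2), and mt-Co2, mt-Nd3 and the shared locus of mt-Atp8, mt-Atp6 and mt-Co3 lie far below the other loci.

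Of the complex I subunits that the mitochondrion encodes, mt-Nd1 (2751 to 3842) and mt-Nd2 (3914 to 5016) belong to the proton-pumping membrane arm. The locus of mt-Nd1 was listed at 9629, 9629 and 10659 FPKM in WT and 14252, 13179 and 12434 FPKM in Fmr1 KO, a log2 change of 0.41 (SE 0.08, adjusted p = 0.0836 with limma). The locus of mt-Nd2 was listed at 6372, 6769 and 7354 FPKM in WT and 10072, 9189 and 8847 FPKM in Fmr1 KO, a log2 change of 0.46 (SE 0.08). In both, Fmr1 KO replicate 1 was the highest library and no WT library reached an Fmr1 KO library. The mt-Nd5 locus, also of the membrane arm, was listed at 5511, 6067 and 6212 FPKM in WT and 7753, 7189 and 6773 FPKM in Fmr1 KO, a smaller log2 change of 0.29 (SE 0.08, adjusted p = 0.164 with limma). The genes mt-Nd4l and mt-Nd4, which overlap and share 1 locus, were listed at 3480, 3856 and 4059 FPKM in WT and 5386, 4855 and 4499 FPKM in Fmr1 KO, a log2 change of 0.37 (SE 0.09, adjusted p = 0.118 with limma).

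The gene mt-Nd6 is the one protein gene on the light strand of the mitochondrial genome and lies opposite the end of mt-Nd5. It was listed at 7840, 7068 and 7728 FPKM in WT and 9632, 8753 and 8201 FPKM in Fmr1 KO, with a log2 change of 0.23 (SE 0.08, adjusted p = 0.259 with limma). The genotypes did not overlap, but WT replicate 1 and Fmr1 KO replicate 3 lay close together. The deposited table gives mt-Nd5 and mt-Nd6 1 joint interval (11742 to 14070), and the strandedness of the libraries is not given in the sources used here, so reads of the 2 genes where they overlap may not have been told apart.

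Cytochrome b, encoded by mt-Cytb (14145 to 15288), is the electron-carrying core of complex III. It was listed at 10587, 10499 and 11349 FPKM in WT and 15521, 14096 and 13251 FPKM in Fmr1 KO, a log2 change of 0.40 (SE 0.08, adjusted p = 0.0938 with limma). The catalytic subunit of complex IV, mt-Co1 (5328 to 6938), had the highest level of the mitochondrial protein genes, at 18353, 17556 and 18306 FPKM in WT and 23317, 21732 and 19925 FPKM in Fmr1 KO. Its log2 change of 0.26 (SE 0.09, adjusted p = 0.242 with limma) was among the smaller ones, with the genotypes apart, and was 0.013 with the trend of each library with level removed.

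The remaining loci lie within the block copied on chromosome 1 and were listed much lower. The copper-binding complex IV subunit mt-Co2 (7013 to 7696) was at 14.0, 15.0 and 14.4 FPKM in WT and 18.4, 25.2 and 236 FPKM in Fmr1 KO. Its log2 change of 1.72 (SE 0.79, adjusted p = 0.358 with limma) rested largely on Fmr1 KO replicate 3, and without that library it was 0.57. The joint locus of mt-Atp8, mt-Atp6 and mt-Co3 (7766 to 9390), for 2 membrane subunits of complex V and 1 subunit of complex IV, was at 288, 261 and 185 FPKM in WT and 360, 498 and 295 FPKM in Fmr1 KO (log2 change 0.64, SE 0.20, adjusted p = 0.215 with limma). The complex I gene mt-Nd3 (9459 to 9806) was at 5.72, 3.38 and 1.01 FPKM in WT and 6.27, 7.38 and 8.16 FPKM in Fmr1 KO (log2 change 1.38, SE 0.49, adjusted p = 0.256 with limma). Without WT replicate 3 its log2 change was 0.70, and without WT replicate 1 it was 1.90. These 3 loci had the largest changes and also the largest standard errors of the 10.

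The 3 loci most covered by the chromosome 1 block were the 3 lowest, though less covered loci did not follow the share covered. The block covered 99.6% of mt-Co2, 99.1% of mt-Nd3, 89.9% of the mt-Atp8, mt-Atp6 and mt-Co3 locus, 69.9% of the mt-Nd4l and mt-Nd4 locus and 30% of mt-Co1, and none of the other 5 loci. Mean levels over the 6 libraries were 53.9, 5.32 and 314 FPKM at the 3 most covered loci, 4356 FPKM at the mt-Nd4 locus, 19865 FPKM at mt-Co1 and 6584 to 12550 FPKM at the 5 loci not covered. Of the 7 pseudogenes, 2 had a row in the table. Gm10925, identical to mt-Atp6 over 678 bases, was listed at 4.21, 5.24 and 4.61 FPKM in WT and 259, 8.59 and 78.9 FPKM in Fmr1 KO (log2 change 3.56, SE 0.98, adjusted p = 0.167 with limma). Of 17 alternative limma fits only 1, without Fmr1 KO replicate 2, gave it an adjusted p below 0.05 (0.00488), and the highest was 0.388. Gm10222, identical to mt-Nd4l over 294 bases, was listed at 10.99, 23.3 and 15.5 FPKM in WT and 8.80, 10.8 and 11.3 FPKM in Fmr1 KO (log2 change -0.62). Both pseudogene rows stayed far below the mitochondrial loci that were not covered, and the part of the copies in the low levels was not tested.

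Across the 10 loci, Fmr1 KO replicate 1 was the highest of the 6 libraries at 7, Fmr1 KO replicate 3 at 2 and Fmr1 KO replicate 2 at 1. Summed over the loci, the protein genes reached 62080, 61724 and 65867 FPKM in WT and 86317, 79523 and 74469 FPKM in Fmr1 KO, a ratio of means of 1.27. The summed rRNAs were at 8830 ± 704 FPKM in WT and 12143 ± 619 FPKM in Fmr1 KO (SD, n = 3), a ratio of 1.38. Of the 22 tRNA genes, most were listed at 0 in every library, and mt-Tl1 was at 23062 and 45128 FPKM in Fmr1 KO replicates 1 and 3 and at 0 in the other libraries. No change is read from values that jump between 0 and such levels among libraries of 1 genotype.

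The nuclear-encoded members had smaller log2 changes than the mitochondrially encoded ones. Of the 93, 86 passed the FPKM minimum, 60 had a log2 change above 0 and 26 below, and the median was 0.03, against 0.005 for all loci. Leaving out WT replicate 2 turned this median to -0.0087, and leaving out WT replicate 1 raised it to 0.08. None was below an adjusted p of 0.05 with limma (the lowest was 0.149, for Ndufa4), while unadjusted p-values below 0.05 came with a rise in 9 and a fall in 2. Without WT replicate 1 the rises numbered 24, and without WT replicate 2 they numbered 5. The 9 are 10.5% of the 86, beside 6.99% of all loci. All Fmr1 KO libraries lay above all WT libraries in 10 (11.6%, beside 10.8% of all loci) and below them in 1. The 7 members not tested were Atp5g2, Cox8c, Ndufa7, Ndufs3 and Uqcrc1, all listed at 0 in every library, and Cox7b2 and Cox8b with mean levels of 0.238 and 0.0818 FPKM.

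Within each library the mitochondrial loci were set against the nuclear members, which cancels a scaling factor common to a whole library. The mean log2 level of the 10 mitochondrial protein loci exceeded that of the 86 nuclear members by 4.34, 4.48 and 4.26 for WT and by 4.83, 4.93 and 5.07 for Fmr1 KO. The libraries did not overlap and the means differed by 0.58 on the log2 scale. With medians in place of means the excess was 6.01, 6.32 and 6.31 for WT and 6.59, 6.58 and 6.42 for Fmr1 KO, a difference of 0.31. With only the 5 loci that have no copy on chromosome 1, it was 6.76, 6.97 and 7.01 for WT and 7.32, 7.26 and 7.13 for Fmr1 KO, a difference of 0.33. The order of the genotypes was the same in all 3 versions, and the smaller values are those in which the 3 low loci weigh less. In summed FPKM, the mitochondrial protein loci stood at 4.17, 4.74 and 4.76 times the nuclear members for WT and at 5.72, 5.46 and 4.95 times for Fmr1 KO, where WT replicate 3 and Fmr1 KO replicate 3 came close.

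**Figure D2:**
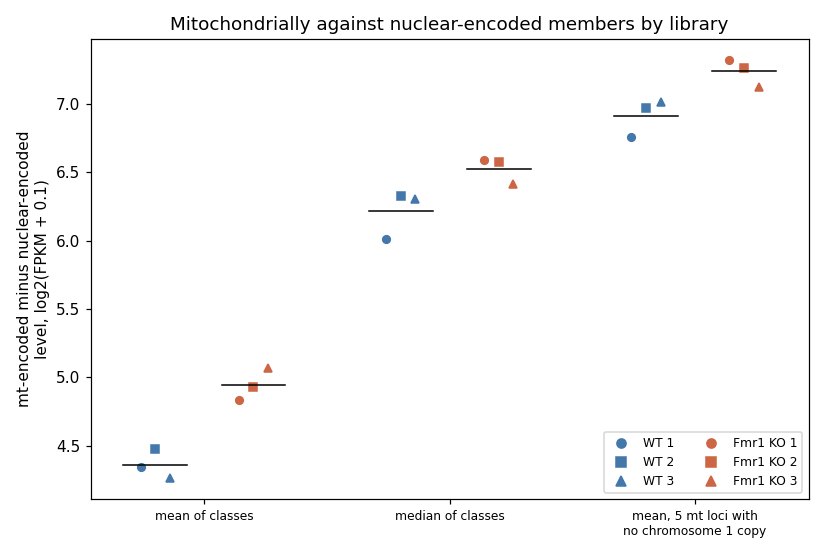
Difference of the mitochondrially encoded and the nuclear-encoded level on the log2(FPKM + 0.1) scale in each library, for the mean over each class, the median over each class, and the mean over the 5 mitochondrial loci with no chromosome 1 copy, with black bars for the mean of 3. The Fmr1 KO libraries (orange) lie above the WT libraries (blue) in all 3, by 0.58, 0.31 and 0.33 between means.

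The mitochondrial loci are among the most abundant in these libraries. The 14 other loci that averaged 1000 FPKM or more, which include the nuclear members Cox6a1 and Cox8a, had a median log2 change of 0.17. At 6 of them (42.9%, beside 10.8% of all loci), Cox6a1 and Cox8a included, all Fmr1 KO libraries lay above all WT libraries. At 1 they lay below. When the trend of each library with expression level was removed, the median change of the mitochondrial protein loci was 0.20, and with quantile normalization it was 0.14. Single loci outside the copied block moved too: with quantile normalization mt-Nd1 was at 0.11, mt-Cytb at 0.10 and mt-Nd5 at 0.07, and with the level trend removed mt-Nd6 was at 0.03. Under quantile normalization the class difference per library was 0.41. It rested mostly on the lowest loci, mt-Co2 (1.71), mt-Nd3 (1.39) and the mt-Atp8, mt-Atp6 and mt-Co3 locus (0.59). The other mitochondrial protein loci lay between -0.17 (mt-Nd6) and 0.31 (mt-Nd2) in that setting.

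Complex IV, cytochrome c oxidase, held 4 of the 10 separated nuclear members (26.7% of its tested members, beside 10.8% of all loci). Ndufa4 was counted with complex I by its symbol. Of its 18 nuclear members 15 were tested, with a median log2 change of 0.09, 11 above 0, and 5 rises with an unadjusted p below 0.05 (33.3%, beside 6.99% of all loci). Cox8a, a small membrane subunit, was listed at 1208, 1030 and 1149 FPKM in WT and 1353, 1266 and 1314 FPKM in Fmr1 KO, the largest change of a separated nuclear member (log2 change 0.22, SE 0.07, adjusted p = 0.203 with limma). Cox6a1, a regulatory subunit and the highest nuclear member, was listed at 1612, 1336 and 1421 FPKM in WT and 1665, 1644 and 1722 FPKM in Fmr1 KO (log2 change 0.21, SE 0.07, adjusted p = 0.246 with limma). In each of these genes WT replicate 1 was the WT library nearest to the Fmr1 KO libraries. Cox4i1, which takes part in the regulation of the enzyme by ATP, was at 718, 606 and 656 FPKM in WT and 727, 719 and 777 FPKM in Fmr1 KO (log2 change 0.17). Cox7b was at 98.1, 82.5 and 95.5 FPKM in WT and 105, 100.3 and 105 FPKM in Fmr1 KO (log2 change 0.17). With quantile normalization the log2 change of Cox8a was -0.09, that of Cox6a1 was 0.01, that of Cox4i1 was 0.03 and that of Cox7b was 0.16.

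Complex I, the NADH dehydrogenase, had 35 of 37 nuclear subunits tested, with a median log2 change of 0.04 and 28 above 0. The lowest of those tested, Ndufb4, averaged 0.984 FPKM with overlapping libraries (log2 change -0.51, SE 0.32, adjusted p = 0.503 with limma). Its coding sequence has an identical copy, Ndufb4c, for which no value was listed, so this low value is not read as a low level. Ndufb6, an accessory subunit of the membrane arm, was listed at 116, 102 and 100.4 FPKM in WT and 123, 121 and 122 FPKM in Fmr1 KO (log2 change 0.21, SE 0.06, adjusted p = 0.175 with limma). Ndufa3, a small accessory subunit, was listed at 413, 360 and 380 FPKM in WT and 446, 421 and 457 FPKM in Fmr1 KO (log2 change 0.20, SE 0.06, adjusted p = 0.201 with limma). Ndufa4 is now assigned to complex IV but was kept with complex I in the counts here by its symbol. It was listed at 678, 646 and 668 FPKM in WT and 800.1, 760.03 and 729 FPKM in Fmr1 KO (log2 change 0.20, SE 0.05). In Ndufa4 the gap between the genotypes was wider than the range within WT but narrower than the range within Fmr1 KO. The 6 tested core subunits, which carry the flavin and the iron-sulfur clusters, lay between 0.01 and 0.06 with a median of 0.03, beside 0.05 for the 29 accessory subunits, and the difference was not tested. Core subunit Ndufs1 (log2 change 0.04) and accessory subunit Ndufa8 (0.08) also had genotypes that did not overlap and were named after their values were seen. Ndufs4, a subunit needed for a stable complex, lies 4.95 Mb from Nnt on chromosome 13 and had a log2 change of 0.17 (adjusted p = 0.356 with limma).

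The 8 complex I assembly factors named Ndufaf sat lower, at mean levels of 5.25 to 24.2 FPKM, with a median log2 change of 0.01. Ndufaf4 was the 1 separated member that was lower, at 7.35, 7.44 and 7.73 FPKM in WT and 6.93, 6.70 and 6.07 FPKM in Fmr1 KO (log2 change -0.19, SE 0.07, adjusted p = 0.272 with limma). Ndufaf8 had the same log2 change of -0.19 (adjusted p = 0.295 with limma), with overlapping libraries.

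Complexes II, III and V held little change. Complex II, which is wholly nuclear-encoded and also serves the TCA cycle, had 3 of 4 subunits below 0 with a median log2 change of -0.04, from Sdha at 116 FPKM to Sdhd at 60.5 FPKM. Complex III had 8 of 9 members tested with a median of 0.01, and Uqcrh was the highest at 304 FPKM. By its own locus Uqcrb was the lowest of those tested at 32.8 FPKM, with 64.0 FPKM more at its near-identical copies. The 1 separated member of complex III was Uqcr10, at 249, 231 and 251 FPKM in WT and 273, 273 and 255 FPKM in Fmr1 KO (log2 change 0.13, adjusted p = 0.295 with limma). Complex V had 15 of 16 members tested with a median of 0.03 and none separated, from Atp5k at 579 FPKM to Atp5l at 1.82 FPKM by its own locus. The catalytic beta subunit Atp5b stood at 488, 464 and 482 FPKM in WT and 488, 484 and 491 FPKM in Fmr1 KO, a log2 change of 0.03.

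**Figure D3:**
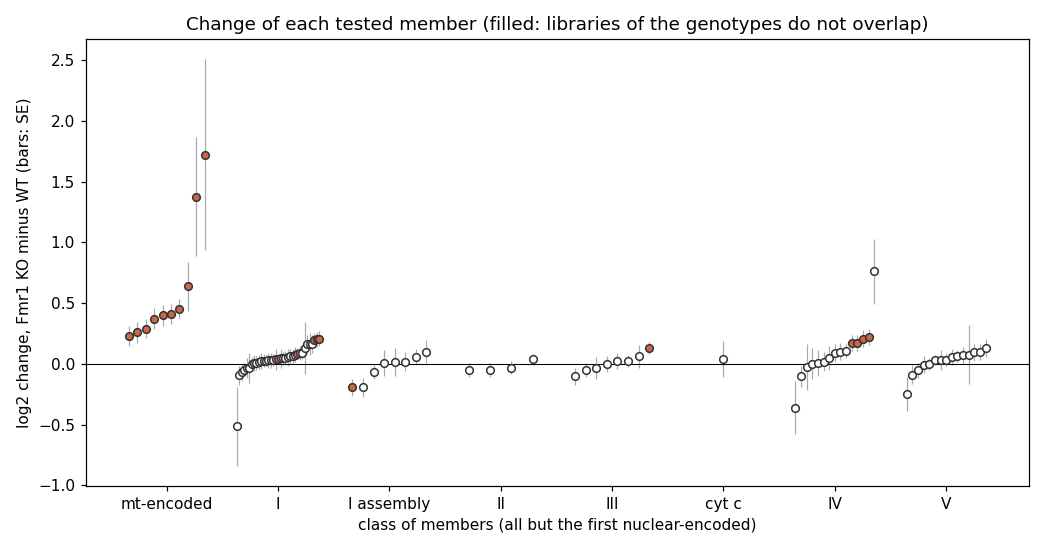
Log2 change (Fmr1 KO minus WT, with SE) of every tested member, by class; filled points mark members whose libraries do not overlap between genotypes. The 10 mitochondrial loci are all filled and lie between 0.23 and 1.72 (mt-Nd4, mt-Nd6 and the complex IV gene Cox8a fall below 0 with quantile normalization). Most nuclear members lie near 0, with 4 filled points in complex IV and 5 in complex I, where Ndufa4 is placed by its symbol.

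For most complex IV subunits with isoforms, the ubiquitous form had a far higher level than the tissue-restricted one. Cox4i1 averaged 700.4 FPKM over the 6 libraries and Cox4i2, the form known from lung, 1.36 FPKM. Cox6a1 averaged 1567 FPKM and the heart and muscle form Cox6a2 10.1 FPKM, and Cox6b1 averaged 669 FPKM and the testis form Cox6b2 5.68 FPKM. Cox7a2 averaged 190.4 FPKM, Cox7a2l, which takes part in supercomplex assembly, 98.7 FPKM and the muscle form Cox7a1 4.50 FPKM. Cox7a1 was at 4.802, 3.24 and 2.12 FPKM in WT and 6.69, 4.30 and 5.86 FPKM in Fmr1 KO, with overlapping libraries (log2 change 0.76, SE 0.27, adjusted p = 0.251 with limma). Cox7b averaged 97.7 FPKM and Cox7b2 0.238 FPKM, and Cox8a averaged 1220 FPKM while Cox8b was above 0 in 1 library and Cox8c in none. The 3 genes for the same mature subunit c of complex V were at 308 FPKM (Atp5g3), 48.9 FPKM (Atp5g1) and 0 (Atp5g2). Of the FPKM summed over Atp5g1 and its copy Gm10039, 75.2% was at the copy (148 FPKM), and summed they averaged 195 FPKM in WT and 199 FPKM in Fmr1 KO. Atp5g2 has identical copies, and unlike the copy of Atp5g1 these averaged only 0.576 FPKM when summed. The reason for the 0 of Atp5g2 was not tested, and it is not read as a level.

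**Figure D4:**
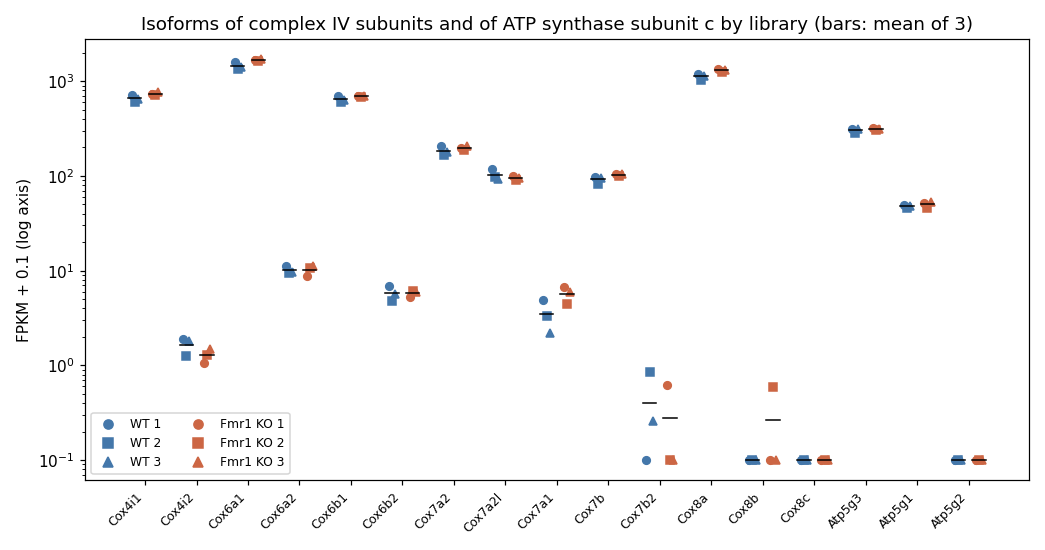
FPKM + 0.1 on a log axis of the isoforms of complex IV subunits and of ATP synthase subunit c in each library, with black bars for the mean of 3. The ubiquitous complex IV forms lie far above Cox4i2, Cox6a2, Cox6b2, Cox7a1, Cox7b2, Cox8b and Cox8c in both genotypes.

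For many nuclear members the deposited value sat at a copy rather than at the gene. A copy was a transcript of another gene with at least 95% identity over at least 90% of the coding sequence, and 19 of the 93 nuclear members had 1 or more in the table. In 13 of the 19, over 50% of the FPKM summed over gene and copies was at the copies. Cox7c, shown with its sequence above, was listed at 8.20 FPKM and its copy Gm12338 at 433 FPKM. Atp5l, a complex V subunit with 0 differences in 309 bases from Gm10221, was listed at 1.82 FPKM and that copy at 436 FPKM. Cox5b was at 20.5 FPKM and Gm11273 at 301 FPKM, and Ndufs5 at 13.1 FPKM and BC002163, which differs at 2 of 318 bases (T81C and A105G), at 114 FPKM. Cycs, the electron carrier cytochrome c, was at 2.49 FPKM and its identical copy Gm10053 at 31.6 FPKM. Where the coding sequences are identical, reads within them cannot be told apart, so a low value at these genes is not read as a low level of the mRNA.

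Summed with its copies, Cox5b was at 296, 287 and 307 FPKM in WT and 344, 343 and 350 FPKM in Fmr1 KO, with no overlap (log2 change 0.22, SE 0.04, adjusted p = 0.0855 with limma). Cox7c summed was at 428, 393 and 428 FPKM in WT and 485, 439 and 479 FPKM in Fmr1 KO, again with no overlap (log2 change 0.17, SE 0.06, adjusted p = 0.241 with limma). At its own locus neither gene had separated libraries. With copies summed, 6 of 15 tested complex IV members were separated with Fmr1 KO higher, and 12 of 87 nuclear members, beside 10.8% of all loci. The summing was chosen after the data were seen. Atp5l (0.06) and Cycs (0.05) had small log2 changes after summing, with overlapping libraries.

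**Figure D5:**
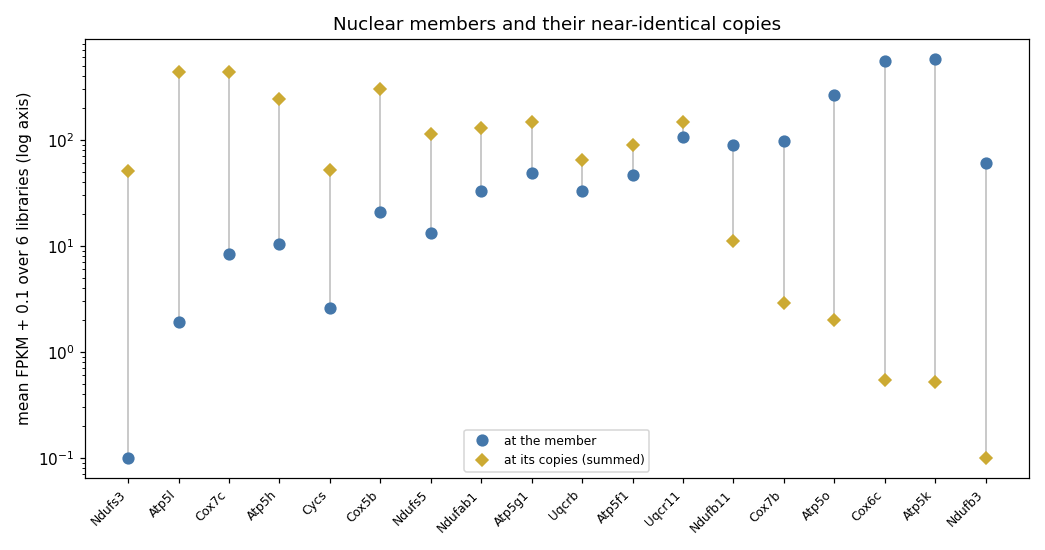
Mean FPKM + 0.1 over the 6 libraries, on a log axis, at each nuclear member (circles) and summed over its copies in the table (diamonds), ordered by the share at the copies; Atp5g2, under 1 FPKM in both, is left out. Toward the left the copies hold most of the FPKM, as for Cox7c (8.20 against 434 FPKM), and toward the right the gene does.

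The members Ndufa7, Ndufs3 and Uqcrc1 each have several loci, on a chromosome and on an unplaced scaffold, all at 0. Ndufs3 is also among the members with a copy, and its copy Gm12251 averaged 50.7 FPKM. Of the 1685 symbols in the table with both kinds of locus, 65.3% were at 0 at every locus, beside 38.2% of the 43549 symbols on chromosomes alone. The listed 0 of these genes is not read as absence of their RNA.

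The promoters of the nuclear members were compared with all promoters in RefSeq (GRCm38.p6, windows around the start site), and 77 of the 93 matched by gene ID. The letters searched, on both strands, were GCATGCGC for nuclear respiratory factor 1 (NRF1), CCGGAAG for ETS factors such as GABP, AAGATGGC for YY1 and TATAAA for the TATA box. NRF1 letters stood in 16.9% of member promoters and 2.80% of all 27025, ETS letters in 22.1% and 9.12%, YY1 letters in 13% and 2.88%, and TATAAA in 9.09% and 14.2%. At least 1 of the first 3 stood in 44.2% of member promoters and 13.8% of all. Of the 10 separated members with Fmr1 KO higher, 8 had a promoter and 5 of these held 1 of the first 3. The promoters of the 2 highest of them are printed with matches in capitals: Cox8a (chr19:7217567-7217866, minus strand) holds the ETS letters at 2 places, and Cox6a1 (chr5:115348909-115349208, minus strand) holds the NRF1 letters, which overlap on the 2 strands, and the ETS letters. A match is a description of letters, not a bound site.
Cox8a: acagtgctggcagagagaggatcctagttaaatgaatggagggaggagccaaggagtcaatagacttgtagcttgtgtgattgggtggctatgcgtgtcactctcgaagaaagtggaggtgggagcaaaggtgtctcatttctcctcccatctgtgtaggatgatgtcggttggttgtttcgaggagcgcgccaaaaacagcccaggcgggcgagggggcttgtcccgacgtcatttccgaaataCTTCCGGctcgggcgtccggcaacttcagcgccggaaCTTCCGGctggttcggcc
Cox6a1: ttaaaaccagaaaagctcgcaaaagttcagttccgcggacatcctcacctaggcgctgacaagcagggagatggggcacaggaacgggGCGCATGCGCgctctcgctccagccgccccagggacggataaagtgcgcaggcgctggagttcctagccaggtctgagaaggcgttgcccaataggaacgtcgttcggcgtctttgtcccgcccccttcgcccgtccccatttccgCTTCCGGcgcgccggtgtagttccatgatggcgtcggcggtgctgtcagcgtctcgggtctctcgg

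Genes around the pathway showed no common direction in most lists. Of 25 tested genes that maintain or express the mitochondrial genome, 11 were above 0 and 14 below, and unadjusted p-values below 0.05 came with 1 rise and 1 fall. The mitochondrial DNA polymerase Polg had the largest rise (log2 change 0.17, adjusted p = 0.185 with limma) and the termination factor Mterf1a the largest fall (-0.34, adjusted p = 0.280 with limma). Of 39 tested assembly factors outside the member rule, 13 were above 0 and 26 below, from Sdhaf4 (0.15) to Pet117 (-0.50). Of 11 tested regulators of mitochondrial biogenesis 7 were above 0, from Perm1 (0.32) to Esrra (-0.12), and of 14 TCA cycle genes 7 were above 0 and 7 below, with the largest fall in Suclg2 (-0.17). Of 16 ATP and membrane partners, 6 were above 0, led by the phosphate carrier Slc25a3 (0.08). The lowest, Nnt, the transhydrogenase that makes NADPH from the proton gradient, was at 10.7, 11.5 and 11.7 FPKM in WT and 6.80, 7.01 and 6.48 FPKM in Fmr1 KO (log2 change -0.73, adjusted p = 0.00374 with limma), the 1 gene of these lists below an adjusted p of 0.05.

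Summed markers of some cell types also differed between the libraries. Neuron markers (10 of 10 in the table) summed to 2122 to 2195 FPKM in WT and 2209 to 2305 FPKM in Fmr1 KO, with 5 log2 changes above 0 (the largest Map2, 0.26) and 5 below (the lowest Snap25, -0.16), and astrocyte markers (8 of 8) to 1706 to 2014 and 1768 to 1965 FPKM. Oligodendrocyte-lineage markers (8 of 8) summed to 346 to 402 and 396 to 439 FPKM, and proliferation markers (6 of 6) to 49.3 to 53.2 and 58.5 to 61.4 FPKM. Microglia markers (10 of 10, with Aif1 at 0) summed to 7.23 to 9.49 FPKM in WT and 1.49 to 3.23 FPKM in Fmr1 KO. Fibroblast and mural cell markers (9 of 9) summed to 53.9 to 59.4 and 42.1 to 49.99 FPKM, most of it Dcn (39.0 to 43.8 and 30.1 to 39.0 FPKM). Of the 5 tested, 1 was above 0 (Rgs5, 0.06) and 4 below (the lowest Bgn, -1.15). Col1a2, under 1 FPKM, was higher in every Fmr1 KO library than in any WT library. Endothelial markers (6 of 6, with Cldn5 at 0) summed to 2.50 to 2.64 and 1.56 to 2.25 FPKM. Choroid plexus markers (5 of 5, with Kl at 0) summed to 0.850 to 1.58 FPKM in WT and 53.5 to 63.4 FPKM in Fmr1 KO, nearly all of it Ttr (52.0 to 60.7 FPKM in Fmr1 KO), while Folr1 overlapped between genotypes and Clic6 and Aqp1 stayed under 1 FPKM. The part of these differences in the levels of the oxidative phosphorylation genes was not tested.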

How the data were processed

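Total RNA from cultures after 14 days in vitro was sequenced by the authors, who clipped adapters, trimmed, aligned reads with TopHat2 to GRCm38 and used Cufflinks for gene construction and Cuffdiff for the comparison. The authors deposited FPKM per library. For scaling, library type and tool versions, the sources used here give nothing. The table also holds the authors' FPKM per group, fold changes, p-values and q-values, which were not used. Absolute depth is unknown; commonest ratios of low FPKM place the other libraries at 1.10 to 1.34 times the depth of WT replicate 1, if fragments set the scaling.

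FPKM were tested with limma 3.58.1 in R 4.3.3 (pseudocount 0.1, minimum mean FPKM 1, genotype as the term, mean-variance trend, two-sided, Benjamini-Hochberg adjustment over all loci), which was tested on simulated data. A locus with several genes was tested once; for a symbol with several loci the highest was used. Copies were found with blastn 2.17.0 in GENCODE transcripts. Named were Fmr1, mitochondrial protein and rRNA genes, members below an adjusted p of 0.05, the 5 largest separated nuclear rises and falls, the extremes of each complex, tissue isoforms, neighbours of Fmr1 or Nnt within 10 Mb, chromosome 1 pseudogenes and the extremes of other lists. Members and lists were chosen with earlier results of these data known. Same-numbered libraries had deviations correlated at 0.24, 0.06 and 0.08, and other combinations of a WT and an Fmr1 KO library at -0.15 to 0.08. The labels do not say that numbers pair libraries, and they were not treated as pairs. The result of 1 single gene is not reported here.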

Additional observations from a re-analysis of the deposited data

How the results depend on the processing

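No nuclear-encoded member was below an adjusted p of 0.05 with limma under any of the 17 alternatives. The number of all loci below it was 12 higher and 23 lower, and became 6 and 9 with no FPKM minimum, 7 and 14 without the mean-variance trend, 20 higher with a minimum of 5 and 19 higher with the trend with locus span removed. Leaving out 1 library gave 4 to 8 higher and 10 to 14 lower. With the replicate number as a block, 29 were higher and 36 lower; the labels do not say that numbers pair libraries, and the block changed no call of a named member. Nuclear members higher at an unadjusted p below 0.05 numbered 9, became 5 with quantile normalization, 14 with the span trend removed and 5 to 24 with 1 library left out, 24 being without WT replicate 1 and 5 without WT replicate 2. Those lower numbered 2, became 1 without the mean-variance trend and 1 to 3 with 1 library left out. The nuclear median (0.03) was -0.0087 to 0.08 with 1 library left out. The median change of the mitochondrial protein loci (0.41) was 0.14 with quantile normalization and 0.20 with the level trend removed, and 0.35 to 0.46 with 1 library left out. The class difference per library (0.58) was 0.41 and 0.46 under these 2 settings. The 0.41 rested mostly on mt-Co2, mt-Nd3 and the mt-Atp8, mt-Atp6 and mt-Co3 locus. In other versions the class difference was 0.31 with medians, 0.46 without mt-Co2, 0.33 for loci with no chromosome 1 copy and 0.52 to 0.64 with 1 library left out. With a minimum of 5 FPKM, 1 mitochondrial protein locus, mt-Nd2, was below an adjusted p of 0.05 (0.0428). The call of mt-Rnr1 was also lost with no FPKM minimum (0.384), quantile normalization (0.693) and no mean-variance trend (0.0855). With quantile normalization 4 named changes reversed: mt-Nd4 (-0.12), mt-Nd6 (-0.17), mt-Rnr2 (-0.065) and Cox8a (-0.094). The cause of these shifts was not tested. The 3 libraries per genotype, and the unknown read counts, limit the precision.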

Other observations

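Symbols dropped by the member rule were also measured. Ndufab1-ps is a copy of the complex I acyl carrier protein gene Ndufab1, with 99.36% identity over 99.6% of its coding sequence. It stood at 43.0 ± 3.28 FPKM in WT and 45.7 ± 2.27 FPKM in Fmr1 KO (SD, n = 3), and Ndufb1-ps at 20.1 ± 0.996 and 21.3 ± 2.28 FPKM. Both had overlapping libraries. Ndufa4l2, a paralogue of Ndufa4 known to be induced by hypoxia, stood at 5.41, 3.82 and 3.50 FPKM in WT and 3.63, 2.56 and 2.05 FPKM in Fmr1 KO, which overlap (log2 change -0.62, adjusted p = 0.251 with limma). Among the mitochondrial tRNAs, mt-Ta was at 59999 FPKM and mt-Tp at 71637 FPKM in WT replicate 3 and at 0 in the 5 other libraries.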
